A study of Mus musculus with 20 samples.

Results

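FKBP immunophilins are proteins that bind the drug FK506 and, in many members, turn peptide bonds at proline. The rows of the count table whose Ensembl identifiers belong to Fkbp5, Fkbp4, Fkbp1a, Fkbp1b, Fkbp2, Fkbp3, Fkbp8, Fkbp9, Fkbp14 and Fkbp15 were taken by name, without use of their values. All 10 were found among 55536 genes, and all 10 were among the 16419 genes that passed the filter on low counts. RNA came from the hippocampus of male mice of strain label C57BL/6J, 12 weeks old, that were wild-type or Fkbp5 knockout. Saline or lipopolysaccharide (LPS), the bacterial endotoxin, had been injected 1 time into the peritoneum, the latter at 3 mg/kg, and tissue was taken at day 7. Both genotypes received both injections, which made 4 groups of 5 libraries. The labels do not describe the knockout allele, the cells in which it acts or the origin of the line, nor do they say whether the 5 libraries of a group came from 5 animals, so p-values measure the spread between these libraries.

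FKBP51, the product of Fkbp5, and FKBP52, the product of Fkbp4, are paralogs that dock on the chaperone HSP90 through tetratricopeptide repeats. In the complex that holds the glucocorticoid receptor, FKBP51 lowers the affinity for hormone, while FKBP52 favours hormone binding and the transport of the receptor to the nucleus. Fkbp5 is itself transcribed in response to the activated receptor, which makes it part of a feedback loop in the stress response, and the hippocampus is rich in both corticosteroid receptors. The comparison of interest is therefore whether Fkbp5 transcript was lower in the knockout and whether any paralog was higher there.

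Levels are given as CPM (each count relative to its library's TMM-scaled total), as mean ± SD over libraries. Library totals lay between 16652992 and 27230202 counts (median 19642484), and the 10 genes together had between 5890 counts (Fkbp14) and 361123 counts (Fkbp1a) over the 20 libraries. The libraries formed 2 sets that every group shared: replicates 1 and 2 had 4.66% to 5.68% mitochondrial counts and 23650 to 25237 genes with a count, and replicates 3 to 5 had 8.41% to 11.4% and 21064 to 22247. The labels do not say what distinguishes these numbers. A change is called where the p of edgeR's quasi-likelihood test, adjusted over 16419 genes by the Benjamini-Hochberg method, was under 0.05. The 8 hippocampal neuron markers all had counts in each group. In whole tissue, fewer cells of a type and less RNA per cell cannot be told apart.

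The promoters of the HSP90-bound pair are shown because Fkbp5 is the knocked-out gene and Fkbp4 its nearest relative in function. The sequences are the 250 bases before the RefSeq start of each gene (GRCm38.p6), on the gene's strand, with the GC box GGGCGG in capitals on either strand. Fkbp5 lies at chr17:28486150-28486399 on the minus strand, inside the span of the GENCODE gene, which reaches further upstream, and Fkbp4 at chr6:128438657-128438906 on the minus strand.
Fkbp5: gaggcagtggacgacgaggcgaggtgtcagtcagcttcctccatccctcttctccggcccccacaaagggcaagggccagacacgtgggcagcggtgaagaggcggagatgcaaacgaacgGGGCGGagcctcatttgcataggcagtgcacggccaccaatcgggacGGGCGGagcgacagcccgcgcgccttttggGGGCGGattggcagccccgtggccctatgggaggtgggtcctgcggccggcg
Fkbp4: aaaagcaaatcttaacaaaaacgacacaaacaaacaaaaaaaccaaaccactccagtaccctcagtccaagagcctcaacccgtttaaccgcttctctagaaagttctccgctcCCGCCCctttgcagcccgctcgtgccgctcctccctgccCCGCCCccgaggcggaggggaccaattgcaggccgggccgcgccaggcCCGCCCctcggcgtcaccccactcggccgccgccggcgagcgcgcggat
Each window held 3 GC boxes, a motif found on either strand in 32.7% of 32851 RefSeq promoter windows of this length. The CCAAT box (CCAAT) occurred 2 times before Fkbp5 and 1 time before Fkbp4, and 33.8% of all windows held it. The glucocorticoid receptor half-site AGAACA (16.1% of windows) was not found in the windows of any of the 10 genes. Nor was TTCNNGAA (7.17%), an arrangement of the heat shock element. The opposite order of its parts was not searched, so these windows cannot be said to lack a heat shock element. The motifs given in letters were searched on both strands with overlaps counted.

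Fkbp5 transcript was lower in the knockout by about 1 log2 unit and was not abolished (ENSMUSG00000024222, chr17:28399094-28517527, minus strand). In wild-type saline the 5 libraries had 58.4, 71.9, 59.9, 56.7 and 68.5 CPM, and in wild-type LPS 73.4, 60.3, 67.6, 63.7 and 65.95 CPM. In knockout saline they had 35.0, 26.8, 27.9, 27.6 and 36.0 CPM, and in knockout LPS 35.1, 28.6, 31.8, 25.1 and 26.6 CPM. Every knockout library was below every wild-type library, a separation of the genotypes that 0.152% of tested genes showed. After saline the mean was 63.1 ± 6.71 CPM in wild-type and 30.7 ± 4.45 CPM in knockout mice, and after LPS 66.2 ± 4.87 and 29.5 ± 4.06 CPM (SD, n = 5 each). The knockout effect was -1.04 ± 0.11 (log2 fold change ± SE, adjusted p = 2.79e-05, edgeR) after saline and -1.17 ± 0.11 (adjusted p = 7.05e-06, edgeR) after LPS. Over both treatments it was -1.10 (95% interval -1.27 to -0.94, adjusted p = 3.63e-08, edgeR), or 0.465 times the wild-type level. Counts per gene do not show which exons the remaining reads covered. This comparison checks the genotype labels, and no library went against its label.

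**Figure D1:**
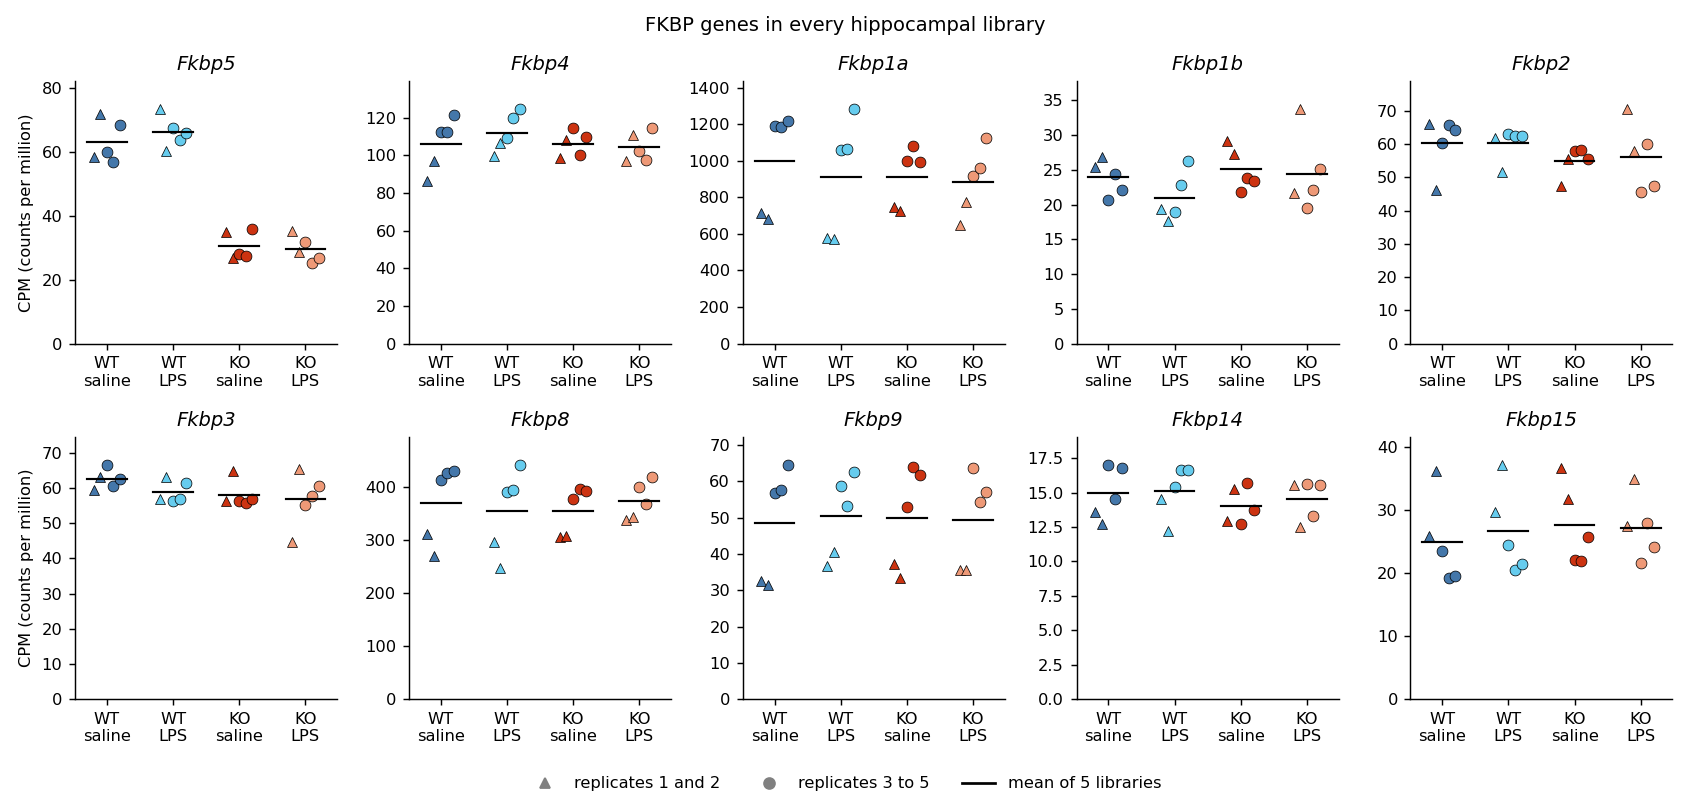
CPM of each of the 10 FKBP genes (y axes, scaled counts, each from 0) in every library of the 4 groups (x axes; WT wild-type, KO knockout); triangles are replicates 1 and 2, circles replicates 3 to 5, and bars the mean of 5 libraries. Fkbp5 is the panel in which the genotypes separate, with knockout libraries at 25.1 to 36.0 CPM and wild-type libraries at 56.7 to 73.4 CPM, while in Fkbp1a, Fkbp8 and Fkbp9 the triangles lie below the circles in every group.

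None of the other 9 FKBP genes was called between genotypes. After saline 0 of 9 passed the test, after LPS 0 of 9, and over both treatments 0 of 9, where 0.171%, 0.146% and 0.439% of all tested genes passed, and 0.292% passed as higher in the knockout over both treatments. At an unadjusted p under 0.05 the count was also 0 of 9 in all 3 genotype comparisons, against 2.67%, 3.27% and 4.79% of all genes. The smallest unadjusted p over both treatments was 0.167 (edgeR). The log2 fold changes of the 9 genes ran from -0.12 to 0.14, with 4 of 9 above 0. A term for the library set left 0 of 9 called, with a smallest adjusted p of 0.622 (edgeR), where 0.926% of genes passed. A p that misses the threshold does not show equal levels, so the intervals are given for each gene.

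Fkbp4, the nearest relative of Fkbp5 (ENSMUSG00000030357, chr6:128429735-128438677), had the narrowest interval of the 9 paralogs after Fkbp3. Its libraries had 86.3, 97.1, 112.3, 112.1 and 121 CPM in wild-type saline, and 99.7, 107, 109, 120.0 and 124 CPM in wild-type LPS. They had 98.6, 108, 115, 99.99 and 109.6 CPM in knockout saline, and 97.0, 111, 102, 97.7 and 114 CPM in knockout LPS. All 4 groups overlapped. The knockout effect over both treatments was -0.05 (95% interval -0.19 to 0.09), which spans a change from -12.3% to 6.69%. With Fkbp5 lower and Fkbp4 at a similar level, the CPM ratio of Fkbp4 to Fkbp5 after saline was 1.69 ± 0.27 in wild-type and 3.53 ± 0.58 in knockout mice, and after LPS 1.70 ± 0.22 and 3.61 ± 0.61 (SD, n = 5 each). The lowest knockout ratio was 2.76 and the highest wild-type ratio 1.98. Because Fkbp5 is the denominator, this separation restates its lower level and is not a separate result on Fkbp4. The sum of both genes was 169 ± 16.1 CPM in wild-type saline and 137 ± 7.24 CPM in knockout saline, and 178 ± 9.12 and 134 ± 7.28 CPM after LPS.

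Fkbp1a and Fkbp1b encode the small FKBPs that consist of little more than the FK506-binding domain. FKBP12, from Fkbp1a (ENSMUSG00000032966, chr2:151542483-151561692), binds FK506 and rapamycin and sits on ryanodine receptors and on type I receptors of the TGF-beta family. Fkbp1a had 714, 683, 1192, 1186 and 1220 CPM in wild-type saline and 578, 572, 1062, 1063 and 1283 CPM in wild-type LPS. In knockout saline it had 745, 728, 997, 1079 and 996 CPM, and in knockout LPS 651, 777, 918, 962 and 1126 CPM. In every group the first 2 libraries were the lowest, and the genotypes overlapped. The knockout effect was -0.09 (95% interval -0.44 to 0.26), and with the library set term the interval narrowed to a change of -12.2% to 6.84%. Fkbp1b, whose product binds the cardiac and neuronal ryanodine receptor RYR2 (ENSMUSG00000020635, chr12:4833174-4841591), averaged 23.9 ± 2.49 CPM in wild-type and 25.1 ± 2.99 CPM in knockout mice after saline, and 21 ± 3.50 and 24.4 ± 5.58 CPM after LPS (SD, n = 5). Its knockout effect of 0.14 (95% interval -0.07 to 0.35) was the highest of the 9, and its highest library was knockout LPS replicate 2 at 33.7 CPM.

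Fkbp2, Fkbp9 and Fkbp14 encode FKBPs of the endoplasmic reticulum, where they act on folding proteins, FKBP22 from Fkbp14 on collagens among them. Fkbp2 (ENSMUSG00000056629, chr19:6977741-6980501) had 66.2, 46.1, 60.2, 65.6 and 64.2 CPM in wild-type saline and 61.7, 51.7, 63.1, 62.5 and 62.4 CPM in wild-type LPS. It had 47.5, 55.4, 58.1, 58.3 and 55.4 CPM in knockout saline and 70.5, 58.0, 45.5, 60.0 and 47.4 CPM in knockout LPS. The ranges overlapped, and the effect of -0.12 (95% interval -0.30 to 0.06) was the lowest of the 9. Fkbp9 (ENSMUSG00000029781, chr6:56832059-56879358) lay between 31.4 and 64.6 CPM in wild-type and between 33.4 and 64.1 CPM in knockout libraries, with an effect of 0.00 (95% interval -0.36 to 0.36). With the library set term its interval was -7.43% to 8.50%. Fkbp14 (ENSMUSG00000038074, chr6:54577604-54597308) was the least abundant of the 10 in CPM, at 12.2 to 17.02 in wild-type and 12.5 to 15.7 in knockout libraries, with an effect of -0.07 (95% interval -0.24 to 0.10).

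The remaining 3 genes act in other compartments. Fkbp3 encodes a nuclear FKBP that binds nucleic acids (ENSMUSG00000020949, chr12:65062424-65074007), and it averaged 62.4 ± 2.77 CPM in wild-type and 57.9 ± 3.80 CPM in knockout mice after saline, and 58.9 ± 3.05 and 56.7 ± 7.75 CPM after LPS. Its effect was -0.08 (95% interval -0.21 to 0.05). Fkbp8 encodes a membrane-anchored FKBP of mitochondria that binds BCL2 (ENSMUSG00000019428, chr8:70527724-70535328), with 248 to 442 CPM in wild-type and 306 to 418 CPM in knockout libraries. The effect on Fkbp8 was 0.01 (95% interval -0.23 to 0.24). Fkbp15, which takes part in endosome transport along actin (ENSMUSG00000066151, chr4:62300342-62360548), averaged 24.9 ± 6.93 and 27.7 ± 6.47 CPM in the 2 genotypes after saline and 26.7 ± 6.90 and 27.3 ± 5.06 CPM after LPS, with an effect of 0.09 (95% interval -0.21 to 0.39). Without the library set term, the upper ends of the 9 intervals over both treatments ran from 3.42% for Fkbp3 to 31.0% for Fkbp15. Larger increases than these lie outside those intervals. Within 1 treatment the intervals were wider, with upper ends that reached 49.0% after saline (Fkbp15) and 43.0% after LPS (Fkbp1b).

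**Figure D2:**
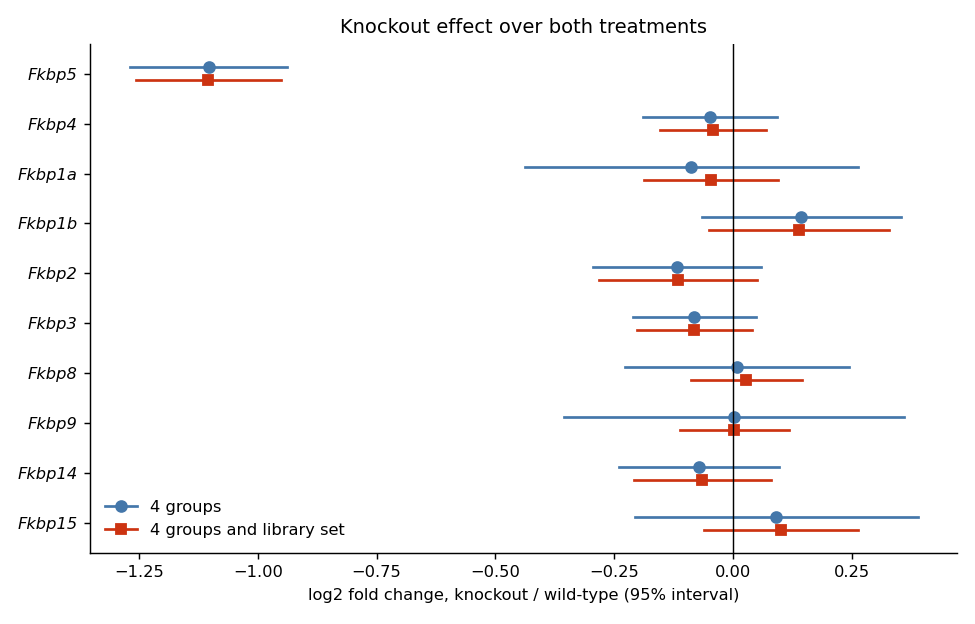
Log2 fold change of knockout over wild-type over both treatments (x axis) with its 95% interval for each FKBP gene (y axis), from the fit of the 4 groups (blue circles) and with a term for the library set (red squares). The intervals of Fkbp5 lie below 0 in both fits and those of the other 9 genes include 0 in both, with the 2 fits farthest apart in width for Fkbp9 and Fkbp1a.

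Together the 9 genes other than Fkbp5 summed to 1711 ± 376 CPM in wild-type and 1601 ± 213 CPM in knockout mice after saline, and to 1611 ± 419 and 1593 ± 220 CPM after LPS (SD, n = 5 each). The groups differed by less than their spread. Fkbp5 made up 3.72% ± 1.07 of the counts of the 10 genes in wild-type saline and 1.91% ± 0.39 in knockout saline. Most of the sum came from Fkbp1a.

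Per kilobase of annotated exon, in wild-type saline, the order of the levels was Fkbp1a at 259 ± 71.2 CPM per kilobase (SD, n = 5), Fkbp8 at 81.8 ± 16.5, Fkbp4 at 37.9 ± 5.0, Fkbp2 at 36.9 ± 5.11 and Fkbp1b at 23.4 ± 2.44. Below these came Fkbp9 at 14.7 ± 4.67, Fkbp3 at 7.95 ± 0.35, Fkbp5 at 6.66 ± 0.71, Fkbp14 at 3.60 ± 0.46 and Fkbp15 at 3.31 ± 0.92 CPM per kilobase. The neighbours Fkbp4 and Fkbp2, and Fkbp14 and Fkbp15, did not differ beyond their spread. The order depended on the length used. Per kilobase of annotated coding sequence Fkbp3 had rank 3 at 92.3 CPM and Fkbp2 rank 7 at 44.4 CPM, and per kilobase of the longest transcript Fkbp5 had rank 6 at 16.4 CPM in place of rank 8. The coding length pools the coding segments of all annotated transcripts of a gene. For Fkbp2 it took in 1361 of 1640 exon bases, so its rank by coding length rests on that pooling.

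None of the 10 genes was called for LPS against saline at day 7. In wild-type mice 0 of 10 passed, where 0% of all genes passed (0 of 16419 by edgeR, 340 at an unadjusted p under 0.05). In knockout mice 0 of 10 passed against 0.00609% of all genes, and over both genotypes 0 of 10 against 0.0426%. Fkbp5, the gene of the family that glucocorticoids induce, had an LPS effect of 0.07 (95% interval -0.16 to 0.30) in wild-type and of -0.06 (95% interval -0.29 to 0.18) in knockout mice. For Fkbp4 the values were 0.08 (95% interval -0.12 to 0.28) and -0.02 (95% interval -0.22 to 0.18). The effect of LPS in wild-type mice farthest from 0 was that of Fkbp1b at -0.19 (95% interval -0.49 to 0.11). The interaction of genotype and treatment called 0 of 10 members and 0% of all genes (0 by edgeR, 182 at an unadjusted p under 0.05), and for Fkbp5 it was -0.13 ± 0.16 (SE). In these 4 comparisons 0 of 10 members had an unadjusted p under 0.05, against 2.07% of all genes for LPS in wild-type, 1.75% in knockout, 2.71% over both genotypes and 1.11% for the interaction.

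Several members differed between the library sets. Between replicates 3 to 5 and replicates 1 and 2, Fkbp9 differed by 0.74 ± 0.06 (log2 fold change ± SE, adjusted p = 1.34e-09, edgeR), Fkbp1a by 0.68 ± 0.07 (adjusted p = 6.01e-08, edgeR) and Fkbp8 by 0.42 ± 0.06 (adjusted p = 2.31e-06, edgeR). Fkbp15 differed the other way by -0.52 ± 0.08 (adjusted p = 7.02e-06, edgeR) and Fkbp4 by 0.15 ± 0.06 (adjusted p = 0.0237, edgeR). These 5 of 10 members stand beside 64.3% of all genes that differed between the sets. Fkbp5 differed by -0.08 ± 0.07 (adjusted p = 0.357, edgeR), with 48.7 CPM in replicates 1 and 2 and 46.5 CPM in replicates 3 to 5.

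Within the sets the knockout effect of several paralogs had opposite signs. In replicates 3 to 5 alone, 3 of 10 members were called over both treatments, all lower in the knockout, where 8.1% of 15523 genes were called in either direction and 3.38% as lower. They were Fkbp5 (-1.13), Fkbp1a (-0.21 ± 0.06 SE, adjusted p = 0.0336, edgeR) and Fkbp2 (-0.23 ± 0.06, adjusted p = 0.0256, edgeR). Fkbp1a averaged 1168 ± 88.5 CPM in 6 wild-type and 1013 ± 76.7 CPM in 6 knockout libraries of that set, and the ranges of 1062 to 1283 and 918 to 1126 CPM overlapped. Fkbp2 lay at 60.2 to 65.6 CPM in wild-type and 45.5 to 60.0 CPM in knockout libraries. In replicates 1 and 2 alone, 0 of 10 members were called, Fkbp5 among them (-1.05, adjusted p = 0.127, edgeR), where 0.0564% of genes were called. There Fkbp1a was 0.22, Fkbp8 0.23, Fkbp1b 0.37, Fkbp4 0.11 and Fkbp2 0.05 higher in the knockout on the log2 scale, with 4 libraries a genotype. The difference of the knockout effect between the sets was tested after these values were seen. For Fkbp1a it was -0.40 ± 0.11 (unadjusted p = 0.0019, adjusted p = 0.113, edgeR), for Fkbp8 -0.29 ± 0.10 (adjusted p = 0.163) and for Fkbp4 -0.22 ± 0.10 (adjusted p = 0.297). None of the 10 members passed that test by edgeR, 4 of 10 (Fkbp1a, Fkbp8, Fkbp4 and Fkbp1b) had an unadjusted p under 0.05, and of all genes 0.122% passed and 15.7% had an unadjusted p under 0.05.

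**Figure D3:**
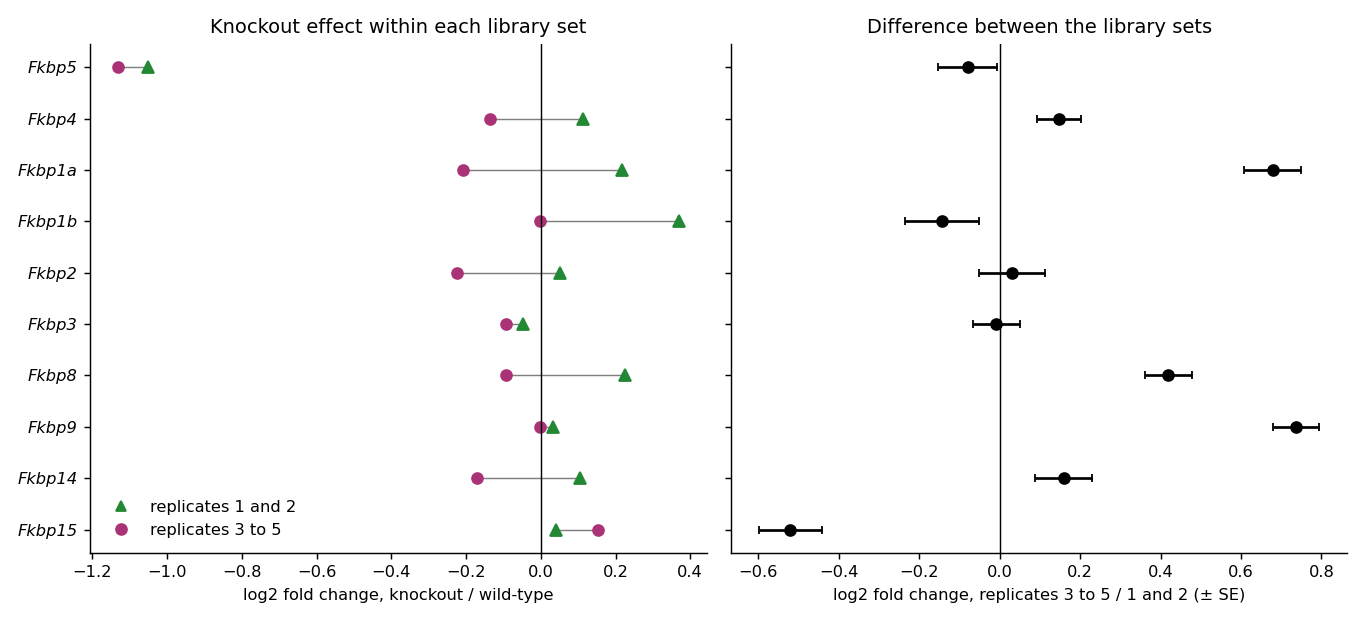
Left, the knockout effect over both treatments (x axis, log2 fold change) fitted in replicates 1 and 2 alone (green triangles) and in replicates 3 to 5 alone (purple circles) for each FKBP gene (y axis). Right, the difference between the library sets (x axis, log2 fold change ± SE) over all groups. Fkbp5 lies near -1.1 in both sets, while Fkbp1a is at 0.22 in one and -0.21 in the other, and Fkbp9 and Fkbp1a are the members with the highest difference between the sets.

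Of 7 other genes of the FKBP family in the table, 5 passed the filter and 0 of 5 were called in any genotype comparison. Of all genes, 0.171% were called after saline, 0.146% after LPS and 0.439% over both treatments. Fkbpl, 6.13 Mb from Fkbp5 on chromosome 17, had an effect of 0.09 ± 0.14 (log2 fold change ± SE), Fkbp7 -0.20 ± 0.12, Fkbp10 0.02 ± 0.17 and Fkbp11 0.00 ± 0.33. Fkbp6 and Aipl1 did not pass the filter on low counts.

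Genes that share the family's activity or its partners were read from lists chosen by name. None of 17 cyclophilins, another large group of proline isomerases, was called for the knockout over both treatments. Of all genes 0.439% were called there, so 0 calls in lists this short say little about their members. The cyclophilins with the smallest p were Ppib at -0.34 ± 0.12 (SE), an isomerase of the endoplasmic reticulum with an adjusted p of 0.524 (edgeR), Ppil1 at -0.17 ± 0.07 and Ppif at 0.15 ± 0.11. Of 20 genes for HSP90 and its co-chaperones 0 were called, with 17 of 20 above 0 and a median of 0.07, beside 46.2% of all genes above 0 and a median of -0.01. The hippocampal neuron markers lay on the same side, with 7 of 8 above 0 and a median of 0.10, and their part in the values of this list was not tested. Trap1, the mitochondrial HSP90, was at 0.13 ± 0.06, the co-chaperone phosphatase Ppp5c at 0.10 ± 0.05 and Hsp90aa1 at 0.26 ± 0.15 (adjusted p from 0.998 upward, edgeR).

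Among 5 tested steroid receptors, the clients of these complexes, 0 were called: the mineralocorticoid receptor Nr3c2 was at 0.12 ± 0.10 (SE) and the progesterone receptor Pgr at -0.10 ± 0.13. For this list and those below, 0.439% of all genes were called in the same comparison. The glucocorticoid receptor gene Nr3c1 was at 0.01 ± 0.12. Of 15 glucocorticoid receptor targets 0 were called, with 9 of 15 above 0 and a median of 0.01. Cdkn1a, a cell cycle inhibitor, was at -0.44 ± 0.11 (adjusted p = 0.0814, edgeR, and 0.0405 with the library set term), the phosphatase Dusp1 at 0.43 ± 0.15 (adjusted p = 0.526) and the metallothionein Mt2 at -0.29 ± 0.15. With the library set term 0.926% of all genes were called. Of 16 genes for partners of FKBP12 0 were called, among them Mtor, the kinase that FKBP12 inhibits when bound to rapamycin, at 0.23 ± 0.09 (adjusted p = 0.712, edgeR), the calcineurin subunit Ppp3cc at 0.15 ± 0.07 and the calcium channel Itpr1 at 0.25 ± 0.15. Of 13 genes of collagen folding 0 were called, and the lysyl hydroxylases Plod3, Plod2 and Plod1 had the smallest p, at 0.17 ± 0.10, -0.45 ± 0.33 and -0.13 ± 0.10.

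The genes whose levels followed Fkbp5 most closely were Gpc1, a glypican (r = 0.89, rho = 0.89), Cntnap1, an axonal adhesion protein (r = 0.89, rho = 0.90), and Tbc1d13 (r = 0.85, rho = 0.81). The likeness was taken over 20 libraries on log2 CPM, after the mean of each group within each library set was subtracted. This leaves fewer independent values than 20, and in the smaller set the values of a group mirror each other. The points also share each library's depth and tissue composition. The named genes are the highest of 16418, and a search this wide gives high r by chance. Whether their r exceeded that chance level was not tested, nor was shared regulation with Fkbp5. Within the family Fkbp9 was closest (r = 0.40, rho = 0.42, place 1529) and Fkbp3 farthest (r = -0.47, rho = -0.44). Of the glucocorticoid receptor targets, Sult1a1 came at place 1133 (r = 0.46), Sgk1 at 3889 (0.21) and Dusp1 at 16202 (-0.67). The others with r above 0 were Klf9 (0.11), Mt1 (0.10) and Mt2 (0.01). Those with r below 0 included Zbtb16 (-0.11), Errfi1 (-0.11), Angptl4 (-0.16), Tsc22d3 (-0.18), Nfkbia (-0.18) and Cdkn1a (-0.27). Further below 0 were Per1 (-0.48), Ddit4 (-0.52) and Pdk4 (-0.53).

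Markers of the cell types the tissue could hold were read in the same fit, and 0 were called in any genotype comparison. Of all genes 0.146% to 0.439% were called in these comparisons. All 8 oligodendrocyte markers were below 0 in the knockout over both treatments, with a median of -0.31, and 2 of 8 (Cldn11 and Opalin) were called with the library set term. With that term 0.926% of all genes were called, and over both treatments 46.2% of all genes were above 0. Their summed level after saline was 2922 to 4888 CPM in wild-type and 2368 to 3695 CPM in knockout libraries, and after LPS 3345 to 6334 and 2787 to 4391 CPM. Endothelial markers had a median of -0.18 with 1 of 8 above 0. The endothelial sum after saline was 160.1 to 273 CPM in wild-type and 144 to 217 CPM in knockout libraries, and after LPS 221 to 271 and 159 to 259.8 CPM. Of 10 markers of meningeal fibroblasts, 9 were above 0 in the knockout after saline (median 0.45) and 2 after LPS (median -0.36). Of all genes, 44.5% were above 0 after saline and 50.5% after LPS. The summed level of the meningeal markers after saline was 51.6 to 111.6 CPM in wild-type and 63.7 to 172.6 CPM in knockout libraries. Over both treatments 7 of 8 neuron markers were above 0 (median 0.10), as were 4 of 8 astrocyte markers (median 0.0049), 1 of 8 microglia markers (median -0.08), 2 of 9 tested thalamus markers (median -0.11) and 4 of 6 tested choroid plexus markers (median 0.33). None of the markers was at 0 in any group, but some were near it. The lowest thalamus marker averaged 0.018 to 0.11 CPM in the groups and the lowest choroid plexus marker 0.21 to 0.33 CPM. The part of the markers in the FKBP values was not tested.

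Reads can be assigned wrongly where genes share sequence. Fkbp1a has 2 processed pseudogenes that met the limits set for a copy. Fkbp1a-ps1 had 94.2% identity over 328 bases and 4 counts over all libraries, and Fkbp1a-ps2 90.5% over 253 bases and 0 counts. Fkbp1a had 361123 counts. Another pseudogene, Fkbp1a-ps3, was not among the copies by these limits and had 0 counts. The treatment of reads that map to several places is not given in the sources used here. Exons of Fkbp8 share 224 bases with Kxd1, those of Fkbp3 599 bases with Prpf39 and those of Fkbp14 208 bases with Plekha8, all on opposite strands. Because the strand setting of the counting is not given either, reads from these overlaps cannot be told apart.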

How the data were processed

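Hippocampal RNA of 20 libraries was sequenced. Per the submitters' processing notes, the authors used Trimmomatic 0.38, FastQC, MultiQC and featureCounts 1.6.0, with the mm10 build. The aligner, strand setting and annotation release are not given in the sources used here. The deposited file holds raw, whole-number counts for each gene. All 55536 identifiers matched GENCODE M21 (GRCm38), and no 2 libraries were identical.

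Counts were tested in edgeR 4.0.16 (R 4.3.3) with TMM scaling, filterByExpr by group and a robust quasi-likelihood fit of all 20 libraries on 4 group means, with Benjamini-Hochberg adjustment over 16419 genes. The 95% intervals use the SE and the fit's degrees of freedom. The script was checked on simulated data. Depth limits precision as the SE shows; counting intervals would cover counting error only. Copies were transcripts of at least 90% identity over at least 200 bases and 30% of the copy.

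Members and lists were chosen with earlier results of these data known. All members were named in each comparison, as were the other FKBP genes, the 3 genes of smallest p in each other list and the 3 most like Fkbp5, except some genes that are not reported here. Alternatives were DESeq2 1.42.0, its size factors, limma-voom (limma 3.58.1), no or a stricter filter (1 CPM in 5 libraries), a replicate block, the library set as a term or each set alone, fits of only the groups compared, and leaving out libraries. Added after the data were seen were the test of the difference between the sets, and the set term without the libraries richest in thalamus or meningeal RNA. To check pairing, deviations from group means were correlated. The 30 pairs with the same replicate number in the labels had r of 0.264 to 0.854 (median 0.462), and pairs of another number in the same library set 0.191 to 0.672 (median 0.45). Pairs across sets had -0.705 to -0.149, and 11 of 20 libraries correlated best with their own number.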

Additional observations from a re-analysis of the deposited data

Results flagged for a closer look

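In 40 groups of 5 libraries (10 genes in 4 groups), 3 held a library whose distance from its nearest neighbour, divided by the range of the group, exceeded Dixon's critical value of 0.71, where chance gives about 1 in 20 groups. Fkbp2 in wild-type LPS replicate 2 was at 51.7 CPM, below the other libraries at 61.7 to 63.1 CPM. Fkbp2 in knockout saline replicate 1 was at 47.5 CPM, below the others at 55.4 to 58.3 CPM. Fkbp3 in knockout saline replicate 2 was at 64.7 CPM, above the others, of which the highest was at 56.7 CPM. All 3 libraries belong to replicates 1 and 2.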

How the results depend on the processing

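Fkbp5 was called lower in the knockout in 33 of 34 settings after saline, 33 of 34 after LPS and 32 of 33 over both treatments, the main analysis not counted. The exception was replicates 1 and 2 alone, which called 0, 0 and 0 members in the 3 comparisons, with Fkbp5 at -1.04, -1.06 and -1.05 and adjusted p of 0.958, 0.921 and 0.127. That fit has fewer libraries. Replicates 3 to 5 alone called 3 members over both treatments, and every other setting called 1. Leaving out 1 library at a time called 1 member in each genotype comparison, and Fkbp5 stayed between -1.14 and -1.08 over both treatments. The replicate block called 1 member in each genotype comparison, and changed no call of a member.

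Signs of effects near 0 turned over both treatments. With replicates 1 and 2 alone Fkbp4 was at 0.11, Fkbp1a at 0.22, Fkbp2 at 0.052 and Fkbp14 at 0.11. With replicates 3 to 5 alone Fkbp1b was at -0.0014, Fkbp8 at -0.092 and Fkbp9 at -0.0024. With limma-voom Fkbp8 was at -0.079 and Fkbp9 at -0.044, and without knockout saline replicates 4 and 5 they were at -0.044 and -0.13. Fkbp9 was at -0.0015 with DESeq2's size factors and -0.0014 with DESeq2. With the set term it was at -0.025 without the 3 libraries richest in thalamus RNA and -0.028 without knockout saline replicates 4 and 5. Leaving out 1 library moved Fkbp8 between -0.044 and 0.056 and Fkbp9 between -0.059 and 0.065. In the other comparisons, without Fkbp5 in the genotype comparisons of 1 treatment, 202 of 1952 values of single members had another sign and 0 passed the threshold. The cause was not tested.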
